A study of Mus musculus with 8 samples.

Results

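Genes of antioxidant defence were followed in mouse skeletal muscle with and without the homeodomain transcription factor Prep1, encoded by Pknox1. The set held 37 genes, chosen by name: superoxide dismutases, glutathione peroxidases, peroxiredoxins, the thioredoxin and glutaredoxin systems, the enzymes that make and use glutathione, the Nrf2 pathway, sestrins and metallothioneins. Their 66 non-control probes were found by gene name on the array, and 61 of these passed the filter on dim probes, which asked for a signal well above background in no fewer than 4 mice. All 37 genes were therefore tested, among 16016 genes in all. Each gene is given by its brightest probe, and 36 of the 37 were well above background on all 8 arrays; Sod3, the secreted superoxide dismutase, was above background on 3 Prep1deltaSM and 2 Prep1f/+ arrays.

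Contracting muscle makes superoxide at its mitochondria and membranes. Superoxide dismutases turn it into hydrogen peroxide, which peroxiredoxins, glutathione peroxidases and catalase reduce to water. Peroxiredoxins are re-reduced by thioredoxin and glutathione peroxidases by glutathione, and both cycles draw on NADPH through their reductases. The transcription factor Nrf2, held back by Keap1, drives many of these genes through the antioxidant response element, and the factor MTF1 drives the metallothioneins through metal response elements. In muscle these systems are known for their part in fatigue, insulin action and ageing.

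RNA came from the tibialis anterior, a fast hindlimb muscle, of 4 Prep1deltaSM mice, in which Prep1 was ablated in skeletal muscle, and of 4 Prep1f/+ mice, the flox controls. All 8 were males of 8 weeks on a C57BL/6 background. The labels used here do not name the Cre driver, the deleted exons, or whether the controls carried Cre; the control genotype has 1 floxed and 1 wild-type allele. Each mouse had its own Agilent 1-colour array, and each of the 4 slides carried 1 array of each group. Values are levels in log2 signal relative to the 75th percentile of the array, and differences are Prep1deltaSM minus Prep1f/+ in log2 units. Levels of different probes are not comparable with each other.

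The arrays had 23787 to 27123 spots well above background among 43379 non-control spots, and no spot was saturated. Pknox1 read -1.84, -2.08, -2.28 and -1.96 in the 4 Prep1deltaSM mice, against -0.09, -0.31, -0.21 and -0.51 in the Prep1f/+ mice. The groups did not overlap, and the difference of -1.76 ± 0.13 (SE, n = 4 mice each) was 3.39-fold lower expression (limma adjusted p = 0.0072). A fit that held slide as a block gave an adjusted p of 0.062 at the same difference, and normexp with quantile normalization gave a smaller difference of -0.89 (limma adjusted p = 0.0018). All 10 listed markers of fast fibres were tested, and their mean level, each gene centred on the 8 mice, lay at -0.05 to 0.06 in Prep1deltaSM and -0.13 to 0.08 in Prep1f/+ mice. All 10 slow fibre markers were lower, with a median difference of -0.42, and their mean lay at -0.70 to 0.27 against -0.25 to 0.95; none passed the adjusted limma test. Of the markers of other cells, the 10 tested macrophage and leukocyte genes lay at -0.63 to 0.13 against -0.15 to 0.61. The 12 fibroblast genes lay at -0.64 to 0.29 against -0.15 to 0.31, and the 10 tested adipocyte genes at -1.40 to 0.67 against -0.41 to 0.81. All 10 tested macrophage and leukocyte genes were lower, as were 10 of 12 fibroblast genes and 7 of 10 tested adipocyte genes. Over all genes 62.7% were lower. Of the 8 endothelial genes 6 were lower, with a median difference of -0.07. No gene of these lists passed the adjusted limma test. The adipocyte marker Lep was below background on every array.

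The promoters of 4 genes on which the results turn are shown here, each as the 250 bases before the RefSeq start (GRCm38.p6, plus strand). Mt1 (chr8:94178839-94179088) and Mt2 (chr8:94172368-94172617) encode the metallothioneins that were far higher in 1 mouse, and capitals mark matches to the metal response element core (TGCACNC or TGCGCNC, either strand). Gclm (chr3:122245307-122245556) encodes the modifier subunit of glutamate-cysteine ligase, and capitals mark a match to the antioxidant response element core (TGACNNNGC), which lies on the minus strand. Gpx3 (chr11:54902604-54902853), the gene with the lowest p of the set, held neither core, nor TGACAG, the hexamer bound by MEIS class factors such as Prep1.
Mt1: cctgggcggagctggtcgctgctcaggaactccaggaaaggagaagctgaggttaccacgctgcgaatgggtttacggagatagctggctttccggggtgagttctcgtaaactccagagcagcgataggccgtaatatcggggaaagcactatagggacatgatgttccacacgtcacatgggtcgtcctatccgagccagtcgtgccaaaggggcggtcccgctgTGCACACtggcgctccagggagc
Mt2: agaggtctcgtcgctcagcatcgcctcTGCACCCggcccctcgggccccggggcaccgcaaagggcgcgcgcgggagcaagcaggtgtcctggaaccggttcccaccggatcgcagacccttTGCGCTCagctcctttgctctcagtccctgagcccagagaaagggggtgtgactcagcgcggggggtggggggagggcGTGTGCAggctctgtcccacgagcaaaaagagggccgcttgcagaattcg
Gclm: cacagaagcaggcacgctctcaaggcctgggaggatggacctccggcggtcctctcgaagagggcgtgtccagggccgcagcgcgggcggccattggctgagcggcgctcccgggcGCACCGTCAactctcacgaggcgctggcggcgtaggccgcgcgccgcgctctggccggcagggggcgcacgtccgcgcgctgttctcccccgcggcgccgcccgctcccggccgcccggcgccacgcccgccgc
Gpx3: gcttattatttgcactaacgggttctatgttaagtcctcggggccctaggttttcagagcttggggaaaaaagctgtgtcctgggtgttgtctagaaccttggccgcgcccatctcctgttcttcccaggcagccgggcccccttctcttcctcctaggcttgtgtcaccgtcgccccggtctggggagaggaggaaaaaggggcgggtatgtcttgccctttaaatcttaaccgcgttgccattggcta

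In Mt1 the match lay at -23 to -17 relative to the start. Mt2 had 3 matches, at -223 to -217, -128 to -122 and -50 to -44, the last on the minus strand. The Gclm match lay at -134 to -126. A window was given for 31 of the 37 genes. The metal response core was found in 11 of these 31 (35.5%), namely Gclm, Glrx, Gpx7, Gstm1, Mt1, Mt2, Prdx4, Sesn3, Srxn1, Txnip and Txnrd2, against 23.8% of 27025 genes with windows of the same length. The antioxidant core was found in 7 of 31 (22.6%), namely Gclm, Mt2, Nfe2l2, Prdx1, Sesn2, Sod1 and Txnrd1, against 11.5% of all genes. TGACAG was found only in Sesn2 among these windows, 3.23% of the 31 against 18.0% of all genes. Both strands were searched, overlapping matches included, and Gclm and Mt2 held both response cores. A gene counted if any of its windows matched. The 31 genes had 42 windows and the 27025 genes had 32851, so the shares are not matched for windows per gene. A match is a description of these letters, and its absence says nothing of binding outside the window.

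No gene of the set passed a limma adjusted p of 0.05, which 0.00624% of all genes did (Pknox1 alone). Of the 37, 14 were higher and 23 lower in Prep1deltaSM muscle, with a median difference of -0.07, the same as the -0.07 over all genes, of which 62.7% were lower. Under quantile, normexp and median scaling 19, 20 and 20 of the 37 were lower, beside 56.1%, 56.8% and 52.2% of all genes. At an unadjusted limma p under 0.05, 2 genes were higher, Gclm and Gss, beside 5.54% of all genes. At the same threshold 3 were lower, Gpx3, Gpx4 and Nqo1, beside 10.3% of all genes. The groups did not overlap for Gss, higher in every Prep1deltaSM mouse (background 3.72%), and for Gpx3 and Gpx4, lower in every Prep1deltaSM mouse (background 6.74%). As shares of the set, these counts lie near the background. The number of arrays limits the precision. Each limma p sets the group difference against the spread between these mice, with variance estimates shared across genes. The main fit left slide out, so that spread also holds differences between slides.

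**Figure D1:**
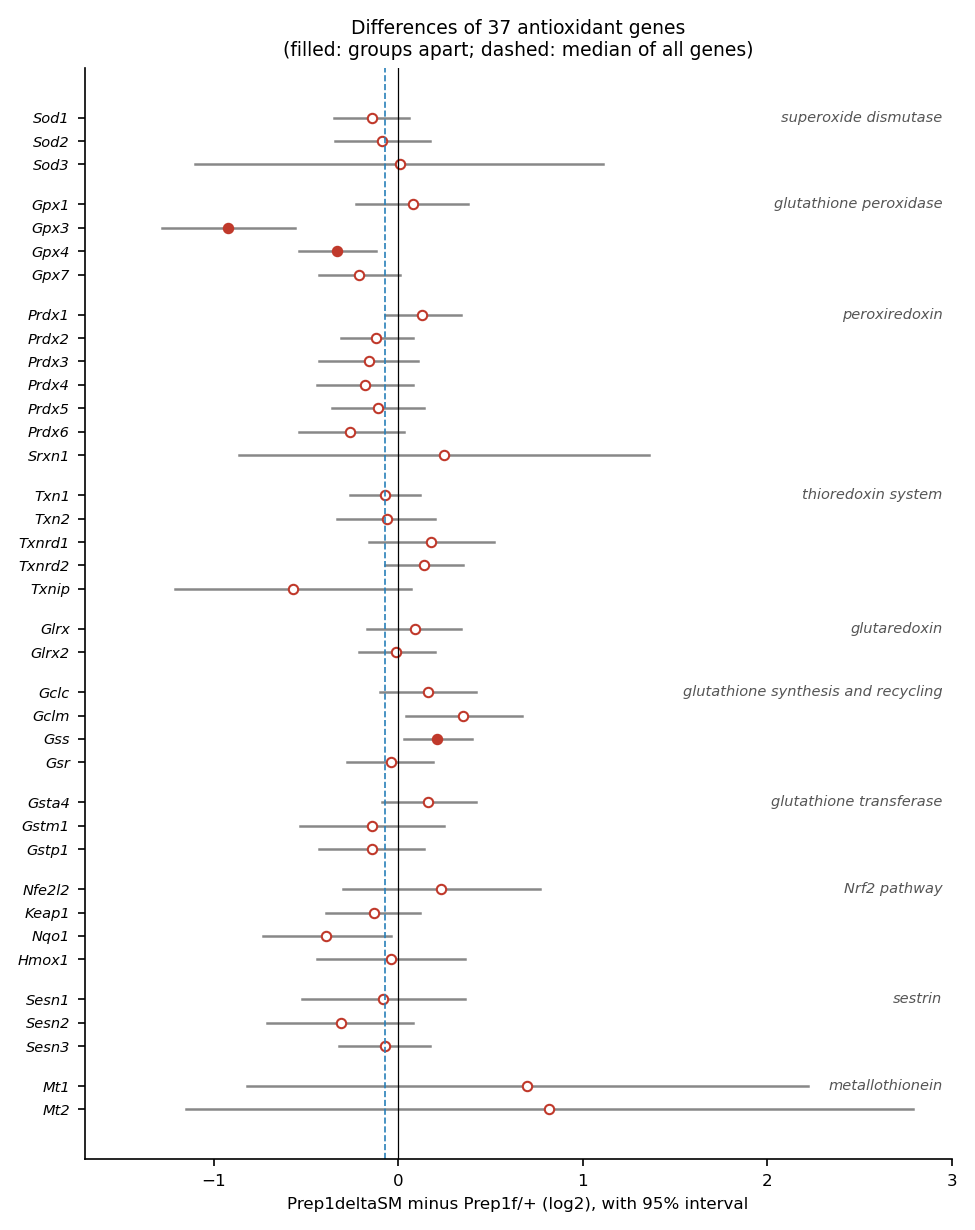
Difference of each of the 37 genes, Prep1deltaSM minus Prep1f/+ (horizontal axis, log2), with its 95% interval from limma (n = 4 mice each); filled points are genes whose groups did not overlap, and the dashed line is the median of all genes. Gpx3 at -0.92 lies farthest below 0, and Mt1 and Mt2 have the widest intervals, -0.82 to 2.22 and -1.15 to 2.79.

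The 3 superoxide dismutases differed little. Sod1, the cytosolic copper-zinc enzyme, read 7.33, 7.34, 7.43 and 7.48 in Prep1deltaSM mice, against 7.46, 7.70, 7.55 and 7.45 in Prep1f/+ mice. Its difference of -0.14 ± 0.09 (SE) did not pass the limma test (adjusted p = 0.446), and the groups overlapped. A dimmer second probe of Sod1 differed by 0.30 ± 0.13, the opposite sign. Sod2, the mitochondrial manganese enzyme, differed by -0.09 ± 0.11. Sod3 lay close to background, from -5.46 to -4.02 in Prep1deltaSM and -5.93 to -3.93 in Prep1f/+ mice, and its interval of -1.10 to 1.11 leaves room for a difference of about 2-fold in either direction.

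Glutathione peroxidases held the gene with the lowest p of the set. Gpx3, a selenoenzyme secreted into plasma and the extracellular space, read 1.52, 2.05, 1.89 and 1.42 in Prep1deltaSM mice, against 2.48, 2.67, 2.58 and 2.83 in Prep1f/+ mice. Every Prep1deltaSM mouse was below every Prep1f/+ mouse, with 0.43 log2 between the nearest. The difference was -0.92 ± 0.16 (SE, 95% interval -1.28 to -0.56), 1.89-fold lower, with a limma adjusted p of 0.119 over all genes. An exact two-sided permutation test gave p = 0.0286, the smallest that 4 mice against 4 allow. Any gene whose groups do not overlap has this value. Within the 4 slides the differences were -1.15, -0.53, -1.05 and -0.94. The 60-base probe of Gpx3 lies at chr11:54723436-54723495 (mm9, plus strand).

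Gpx3 is also made by adipocytes and other non-muscle cells, so marker levels are given beside it. The macrophage, fibroblast and adipocyte lists had median differences of -0.47, -0.38 and -0.51, and in none did a gene pass the adjusted limma test. Prep1deltaSM replicate 4 had the lowest Gpx3 and the lowest macrophage and fibroblast means (-0.63 and -0.64), with an adipocyte mean of -0.84. Prep1deltaSM replicate 1, with the next lowest Gpx3, had a high adipocyte mean (0.67), a fibroblast mean of 0.01 and a macrophage mean of -0.13. Prep1deltaSM replicate 2, with the highest Gpx3 of its group, had the lowest adipocyte mean of all mice (-1.40), a fibroblast mean of -0.36 and a macrophage mean of -0.37, and replicate 3 had means of 0.59, 0.29 and 0.13. In Prep1f/+ replicates 1 to 4, with Gpx3 at 2.48, 2.67, 2.58 and 2.83, the adipocyte means were -0.18, 0.75, 0.81 and -0.41. Their fibroblast means were -0.15, 0.27, 0.26 and 0.31, and their macrophage means -0.15, 0.14, 0.61 and 0.39. The part of these cells in the Gpx3 difference was not tested, and in bulk RNA fewer cells of a type and less RNA per cell cannot be told apart.

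Gpx4, the selenoenzyme that reduces lipid hydroperoxides in membranes and guards cells against ferroptosis, read 7.01, 7.07, 7.05 and 7.21 in Prep1deltaSM mice, against 7.35, 7.59, 7.36 and 7.36 in Prep1f/+ mice. The groups did not overlap, but the nearest pair was 0.14 apart and 1 control, replicate 2, stood above the rest. Its difference was -0.33 ± 0.09 (SE, interval -0.54 to -0.12), 1.26-fold lower, with a limma adjusted p of 0.186. The exact permutation p of 0.0286 restates the lack of overlap and adds nothing to it. Gpx7, a peroxidase of the endoplasmic reticulum, read 0.62, 0.55, 0.83 and 0.47 against 0.76, 0.83, 0.84 and 0.87, a difference of -0.21 ± 0.09 (limma adjusted p = 0.326). Only Prep1deltaSM replicate 3 reached the control range. Gpx1, the cytosolic selenoenzyme, differed by 0.08 ± 0.13, so 3 of the 4 peroxidases were lower and 1 was higher, also under the other scalings tried.

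The probes of Gpx4, Gss, Gclm and Prdx2 shown here each span more of the genome (mm9) than their own 60 bases, so each reads across a splice junction. They lie at chr10:79518691-79518842 (plus strand) for Gpx4, chr2:155389432-155390531 (minus) for Gss, chr3:121962174-121964809 (plus) for Gclm and chr8:87494188-87494338 (plus) for the second Prdx2 probe. No base is marked in them. Probes of other genes of the set, among them Txnrd2, Glrx2 and Prdx1, also span more than 60 bases and are not shown.
Gpx4: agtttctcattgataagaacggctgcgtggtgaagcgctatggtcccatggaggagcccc
Gss: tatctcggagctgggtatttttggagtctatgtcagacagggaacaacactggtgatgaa
Gclm: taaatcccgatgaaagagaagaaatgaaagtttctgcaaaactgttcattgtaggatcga
Prdx2: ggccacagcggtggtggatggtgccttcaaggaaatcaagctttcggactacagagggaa

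**Figure D2:**
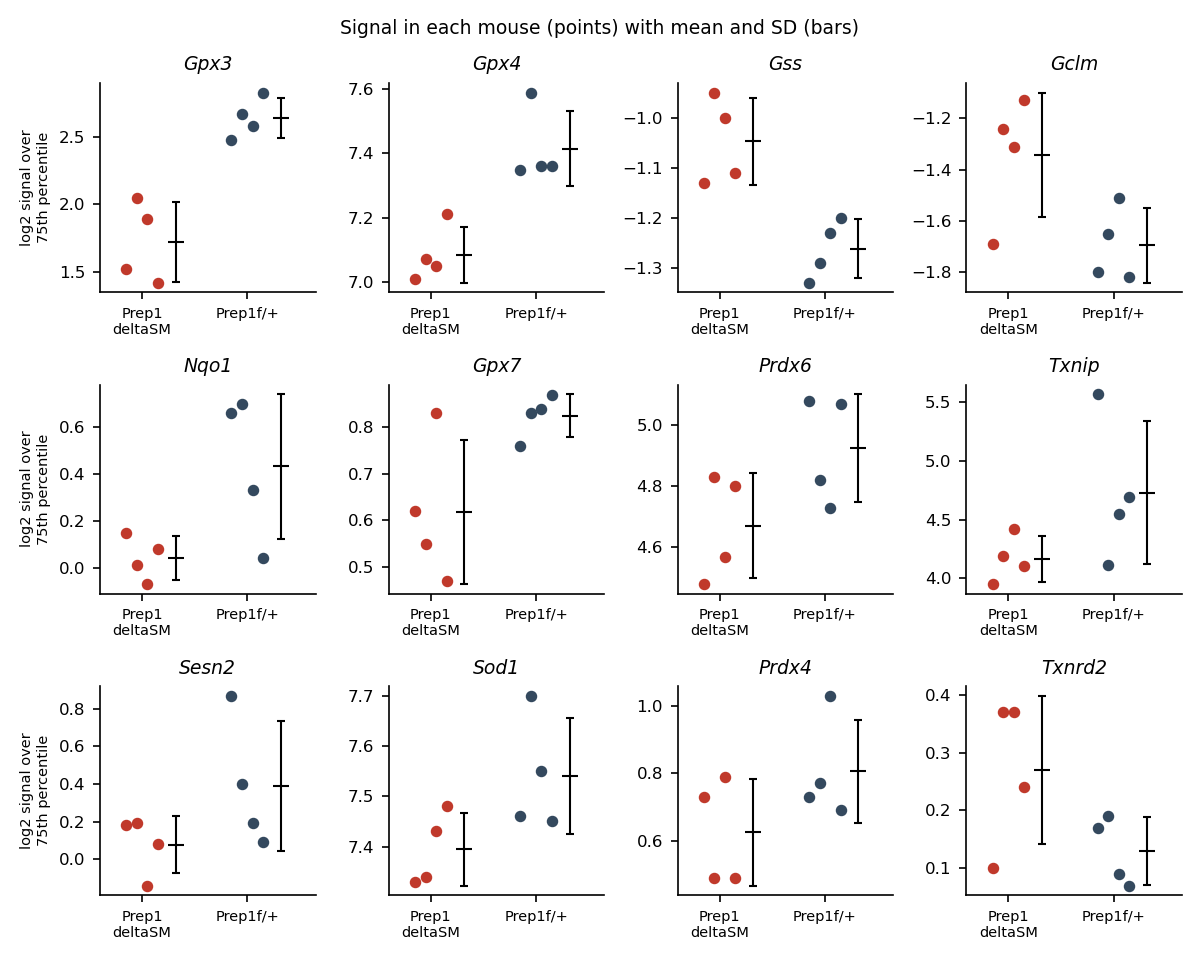
Level of 12 genes in each mouse (points, log2 signal over the array's 75th percentile; Prep1deltaSM left, Prep1f/+ right), with the mean and SD of each group as bars (n = 4 mice each). Gpx3, Gpx4 and Gss show no overlap between the groups; Gclm, Nqo1 and Txnip overlap through 1 mouse or more.

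Of the 4 genes of glutathione synthesis and recycling, 2 were higher at an unadjusted limma p under 0.05, beside 5.54% of all genes. With slide as a block the unadjusted limma p was 0.0483 for Gclm and 0.0537 for Gss. Gclm read -1.69, -1.24, -1.31 and -1.13 in Prep1deltaSM mice, against -1.80, -1.65, -1.51 and -1.82 in Prep1f/+ mice. Only Prep1deltaSM replicate 1 lay in the control range. The difference was 0.35 ± 0.14 (SE, interval 0.04 to 0.67; limma adjusted p = 0.272), and a second, dimmer Gclm probe differed by 0.30 ± 0.22. Gss, glutathione synthetase, which adds the last residue of the tripeptide, read -1.13, -0.95, -1.0 and -1.11 against -1.33, -1.29, -1.23 and -1.20. All Prep1deltaSM mice were above all controls, with 0.07 between the nearest, and the difference of 0.21 ± 0.08 was positive within all 4 slides (limma adjusted p = 0.261). Gclc, the catalytic subunit of the ligase, differed by 0.16 ± 0.12 and Gsr, which recycles oxidized glutathione, by -0.04 ± 0.10. Gsr turned to a positive sign under quantile normalization and median centring, and Gclc, Gclm and Gss stayed positive under all 3 scalings. Of the glutathione transferases, which couple glutathione to electrophiles, Gsta4 differed by 0.16 ± 0.11, Gstm1 by -0.14 ± 0.17 and Gstp1 by -0.14 ± 0.12.

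Peroxiredoxins, the abundant thiol peroxidases, were lower in 5 of 7 cases counting Srxn1, and none had an unadjusted p under 0.05 on its brightest probe. Prdx6, which uses glutathione rather than thioredoxin, read 4.48, 4.83, 4.57 and 4.80 in Prep1deltaSM mice, against 5.08, 4.82, 4.73 and 5.07 in Prep1f/+ mice. Its groups overlapped, and the difference of -0.26 ± 0.12 had a limma adjusted p of 0.353. Its other kept probes differed by -0.06 and 0.29. Prdx4, the form of the endoplasmic reticulum, read 0.73, 0.49, 0.79 and 0.49 against 0.73, 0.77, 1.03 and 0.69, a difference of -0.18 ± 0.11 with overlap. Prdx1 and Prdx3, the cytosolic and mitochondrial forms, differed by 0.13 ± 0.09 and -0.16 ± 0.12, and Prdx5 by -0.11 ± 0.11.

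Prdx2, a cytosolic peroxiredoxin abundant in red cells, gave opposite signs by probe. Its brightest probe, the mean of 10 spots, read 6.71, 6.84, 6.90 and 6.93 in Prep1deltaSM mice, against 6.97, 7.06, 6.94 and 6.88 in Prep1f/+ mice, a difference of -0.12 ± 0.09. The junction probe printed above read 3.35, 3.58, 3.48 and 3.48 against 3.10, 3.29, 3.19 and 2.98. On that probe every Prep1deltaSM mouse was higher, by 0.33 ± 0.10 (limma adjusted p over all probes = 0.157). The remaining probe differed by 0.17 ± 0.10. The 4 tested erythroid markers lay at -0.35 to 1.58 in Prep1deltaSM and -0.90 to 0.74 in Prep1f/+ mice, and their part in the Prdx2 values was not tested.

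Of the thioredoxin system, Txnip, the arrestin-like protein that binds thioredoxin and restrains glucose uptake, read 3.95, 4.19, 4.42 and 4.10 in Prep1deltaSM mice, against 5.57, 4.11, 4.55 and 4.69 in Prep1f/+ mice. Control replicate 1 was high, control replicate 2 lay within the Prep1deltaSM range, and the difference was -0.57 ± 0.28 (SE; limma adjusted p = 0.359). A second Txnip probe read 1.43, 1.47, 1.67 and 1.42 against 2.58, 1.79, 1.75 and 1.87. There the groups did not overlap, and the difference was -0.50 ± 0.19 (limma adjusted p over all probes = 0.22). Without control replicate 1 the difference of the first probe was -0.29, and both probes read highest in that mouse. Txnrd2, the mitochondrial thioredoxin reductase, read 0.10, 0.37, 0.37 and 0.24 against 0.17, 0.19, 0.09 and 0.07, a difference of 0.14 ± 0.09, while its second probe differed by -0.37 ± 0.30. Txn1 and Txn2, the cytosolic and mitochondrial thioredoxins, differed by -0.07 ± 0.08 and -0.06 ± 0.12, and the glutaredoxins Glrx and Glrx2 by 0.09 ± 0.11 and -0.01 ± 0.09. The signs of these small values moved with the scaling: 3 of 5 genes of the thioredoxin system were lower here and 1 of 5 under both quantile scalings.

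In the Nrf2 pathway 1 of 4 genes had an unadjusted p under 0.05, the target Nqo1, a quinone reductase. It was lower, as were 10.3% of all genes at that threshold. Nqo1 read 0.15, 0.01, -0.07 and 0.08 in Prep1deltaSM mice, against 0.66, 0.70, 0.33 and 0.04 in Prep1f/+ mice. Control replicate 4 fell inside the Prep1deltaSM range, and the difference of -0.39 ± 0.15 (SE, interval -0.73 to -0.04) was negative within all 4 slides (limma adjusted p = 0.277). Nfe2l2, which encodes Nrf2, read 2.61, 2.63, 2.70 and 2.96 against 1.74, 2.63, 2.72 and 2.86, and control replicate 1 stood below the rest. Without that mouse its difference of 0.23 ± 0.23 became -0.02. A dim probe assigned to another Nfe2l2 transcript read -3.77, -3.71, -3.37 and -3.65 against -4.25, -4.92, -4.89 and -3.91, 0.87 ± 0.23 higher (limma adjusted p over all probes = 0.134). It was above background on 4 Prep1deltaSM and 3 Prep1f/+ arrays, and it was picked out after its values were seen. Keap1, the Nrf2 inhibitor, differed by -0.13 ± 0.11 and Hmox1, heme oxygenase, by -0.04 ± 0.18.

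The 3 sestrins, stress-induced regulators of mTORC1 signalling, were lower on their brightest probes, where 62.7% of all genes were lower. The sign did not hold for Sesn1 and Sesn3: their other probes differed by 0.24 and 0.10 and by 0.08 and 0.11, and averaged over probes they differed by 0.09 and 0.04. Sesn2 read 0.18, 0.19, -0.14 and 0.08 in Prep1deltaSM mice, against 0.87, 0.40, 0.19 and 0.09 in Prep1f/+ mice. Its groups overlapped, and the difference of -0.31 ± 0.17 (limma adjusted p = 0.408) was matched by -0.31 ± 0.15 on its second probe. Without Prep1f/+ replicate 1, the highest mouse, the difference was -0.15. Sesn1 and Sesn3 differed by -0.08 ± 0.19 and -0.07 ± 0.11.

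The widest spread of the set was in 1 mouse. Mt1 and Mt2, which encode small cysteine-rich proteins that bind zinc and copper and are induced by metals, glucocorticoids and oxidants, were far higher in Prep1deltaSM replicate 4. Mt1 read 3.75, 3.24, 3.45 and 6.47 in Prep1deltaSM mice, against 2.98, 3.63, 3.52 and 3.97 in Prep1f/+ mice. Replicate 4 was 7.73-fold above the median of the other 7 mice and 5.68-fold above the highest of them. Mt2 read 3.71, 1.91, 2.76 and 6.27 against 1.82, 2.74, 3.39 and 3.41, and the same mouse stood 11.3-fold above the median of the others. The 2 probes lie 6640 bases apart on chromosome 8 (mm9).

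Srxn1, sulfiredoxin, which repairs over-oxidized peroxiredoxins, followed the same mouse. It read 2.36, 2.36, 2.18 and 4.10 in Prep1deltaSM mice, against 1.80, 2.55, 2.23 and 3.42 in Prep1f/+ mice. Replicate 4 was 3.35-fold above the median of the others and 1.6-fold above control replicate 4, the next highest, and its 2 other probes were also highest there. Txnrd1, the cytosolic thioredoxin reductase, read 4.06, 4.24, 4.17 and 4.77 against 4.12, 4.19, 4.09 and 4.11, 1.57-fold above the median in that mouse. The group differences of 0.70 ± 0.66, 0.82 ± 0.86 and 0.25 ± 0.48 for Mt1, Mt2 and Srxn1 had limma adjusted p-values of 0.624, 0.657 and 0.824. Without Prep1deltaSM replicate 4 they were -0.04, -0.05 and -0.20. A dim second Mt1 probe did not share the pattern: it read -3.22 in that mouse and highest, -2.20, in Prep1deltaSM replicate 3. These 4 genes were picked out after their values were seen.

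**Figure D3:**
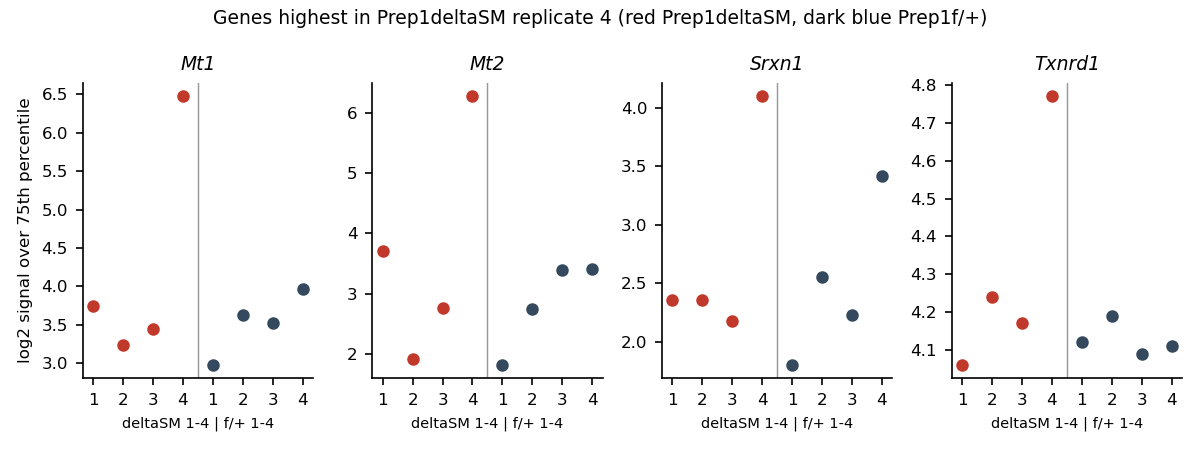
Level of Mt1, Mt2, Srxn1 and Txnrd1 in each mouse (log2 signal over the array's 75th percentile; Prep1deltaSM replicates 1 to 4 left of the line, Prep1f/+ replicates 1 to 4 right of it; each panel has its own scale). Prep1deltaSM replicate 4 is the highest point in all 4 panels, at 6.47, 6.27, 4.10 and 4.77.

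Mice differed in how often they were extreme. Prep1deltaSM replicate 1 was lowest for 10 of the 37 genes and highest for none, and Prep1deltaSM replicate 4 was highest for 7. Prep1f/+ replicate 2 was highest for 14 genes and lowest for none, while Prep1f/+ replicates 4 and 1 were lowest for 9 and 8. Prep1deltaSM replicate 1 and Prep1f/+ replicate 2 shared a slide, so their extremes fall in the same within-slide difference. On that slide Gpx4 differed by -0.58, against -0.29, -0.14 and -0.32 on the other slides. The within-group SD of the 37 genes ran from 0.07 to 1.43 with a median of 0.16, beside a median of 0.19 over all genes. Control replicate 1 read lowest for Mt1, Mt2, Srxn1 and Nfe2l2 and highest for Txnip and Sesn2; it shared a slide with Prep1deltaSM replicate 4, and on that slide Mt1 and Mt2 differed by 3.49 and 4.44.

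**Figure D4:**
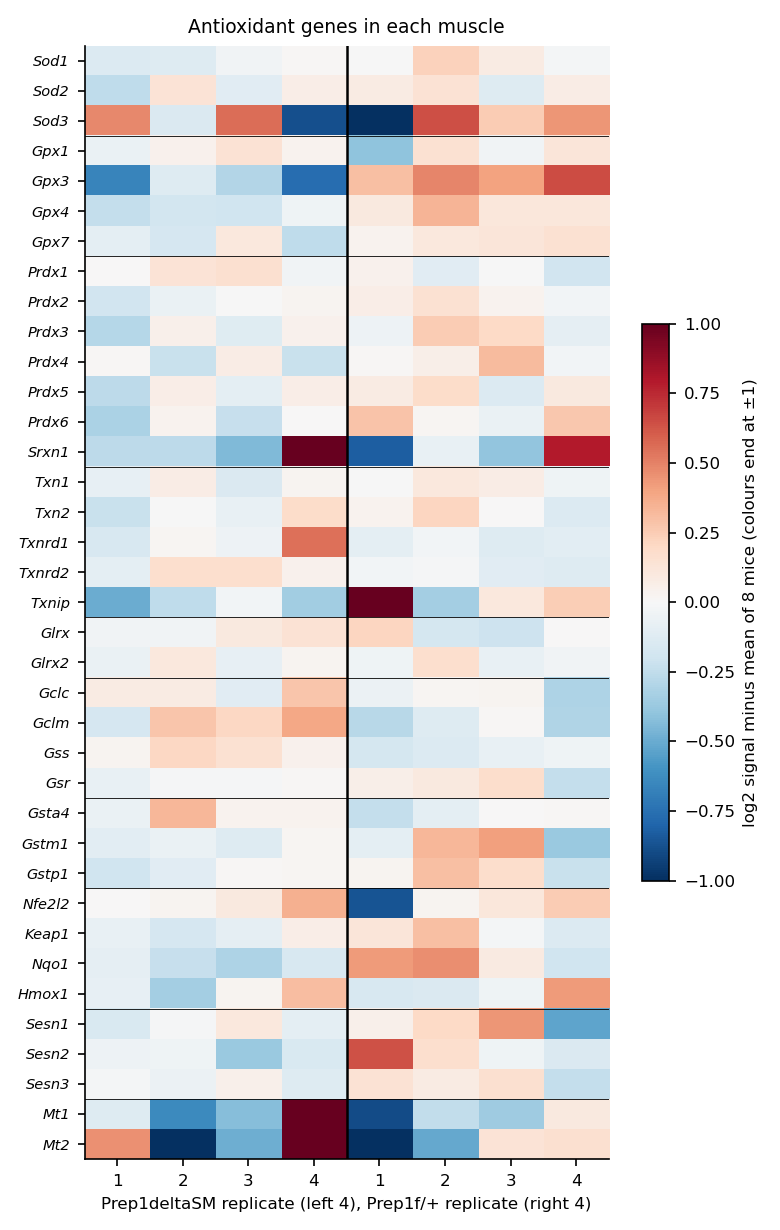
Level of each of the 37 genes in each mouse minus its mean over the 8 mice (colour, log2, ending at 1 in either direction; Prep1deltaSM replicates on the left, Prep1f/+ on the right; lines divide the families). The row of Gpx3 is blue in all Prep1deltaSM columns and red in all Prep1f/+ columns, and Mt1, Mt2 and Srxn1 are dark red in Prep1deltaSM replicate 4.

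Of 17 genes with at least 2 kept probes, 9 had probes of both signs, so the sign of a small difference often depended on the probe. Over the 61 kept probes, 29 differed upward and 32 downward, and their median was -0.01 beside -0.02 for all kept probes. At an unadjusted limma p under 0.05, 4 probes were higher (background 9.66%) and 4 lower (background 8.09%). The groups did not overlap on 3 higher probes (background 6.43%) and 3 lower ones (background 5.35%).

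A wider list of 121 redox genes was read in the same fit, and 109 of them were tested. No gene of it passed a limma adjusted p of 0.05. Of the 109, 27 were higher and 82 lower, where 62.7% of all genes were lower. The median was -0.11, against -0.07 over all genes. Under quantile, normexp and median scaling 68, 72 and 72 of the 109 were lower, beside 56.1%, 56.8% and 52.2% of all genes. At an unadjusted p under 0.05, 3 were higher and 12 lower, beside 5.54% and 10.3% of all genes. Among the lower genes were G6pdx, which makes NADPH at the entry to the pentose phosphate pathway, and Sephs2, which makes the selenium donor for selenoproteins. G6pdx read 0.02, -0.36, -0.05 and -0.20 in Prep1deltaSM mice, against 0.17, 0.39, 0.44 and 0.20 in Prep1f/+ mice, a difference of -0.45 ± 0.11 without overlap (limma adjusted p = 0.171). Sephs2 read 1.59, 1.79, 1.68 and 1.83 against 2.29, 2.19, 1.97 and 2.12, a difference of -0.42 ± 0.10 without overlap (limma adjusted p = 0.156). Cbr3, a carbonyl reductase, differed by -0.52 ± 0.15, and Duox1, an NADPH oxidase that makes hydrogen peroxide, by -0.96 ± 0.22 at levels close to background (-4.42 to -4.13 against -3.90 to -2.89). Over the alternatives Duox1 ran from -1.35, without Prep1f/+ replicates 1 and 4, to -0.16, under normexp with quantile normalization.

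Of the higher genes, Glo1, the glyoxalase that uses glutathione to clear methylglyoxal, read 5.69, 5.89, 5.72 and 5.84 in Prep1deltaSM mice, against 5.47, 5.51, 5.44 and 5.46 in Prep1f/+ mice. The groups did not overlap, and the difference of 0.32 ± 0.08 (limma adjusted p = 0.166) passed under normexp with quantile normalization (0.39, adjusted p = 0.0241). Its probe lies 1.01 Mb from that of Pknox1 on chromosome 17 (mm9). Mafg, a small Maf partner of Nrf2, differed by 0.28 ± 0.10, Ftl1, the ferritin light chain, by 0.36 ± 0.15. Pdia4, a disulfide isomerase, next in order of p, differed by 0.27 ± 0.13 and was not among the 3 (limma adjusted p = 0.36). Mafg and Ftl1 read highest in Prep1deltaSM replicate 4.

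Read by group, all 11 tested selenoproteins and methionine sulfoxide reductases were lower, with a median of -0.15, beside 62.7% of all genes. Under quantile, normexp or median scaling 9 of 11 were lower, beside 56.1%, 56.8% and 52.2% of all genes. At an unadjusted limma p under 0.05, 4 of the 11 were lower, Selm, Sephs2, Sepp1 and Sepn1 (background 10.3%). The groups did not overlap for 3, Sephs2, Selm at -0.44 ± 0.14 and Sepp1, the selenium transporter selenoprotein P, at -0.31 ± 0.11 (background 6.74%). Selm, Sepp1 and Sepn1 were named after their values were seen. The selenoenzymes among the 37 genes were Gpx3 and Gpx4, both lower, and Gpx1, Txnrd1 and Txnrd2, which differed by 0.08, 0.18 and 0.14. Glutathione transferases were lower in 14 of 16 cases (median -0.20) and NADPH supply genes in 7 of 9 (median -0.13), beside 62.7% of all genes (median -0.07). Under quantile, normexp or median scaling 13 of 16 and 7 of 9 were lower, beside 56.1%, 56.8% and 52.2% of all genes. The medians were then -0.14, -0.09 and -0.14 for the transferases and -0.09, -0.08 and -0.08 for NADPH supply. Catalase, Cat, differed by -0.02 ± 0.13.

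**Figure D5:**
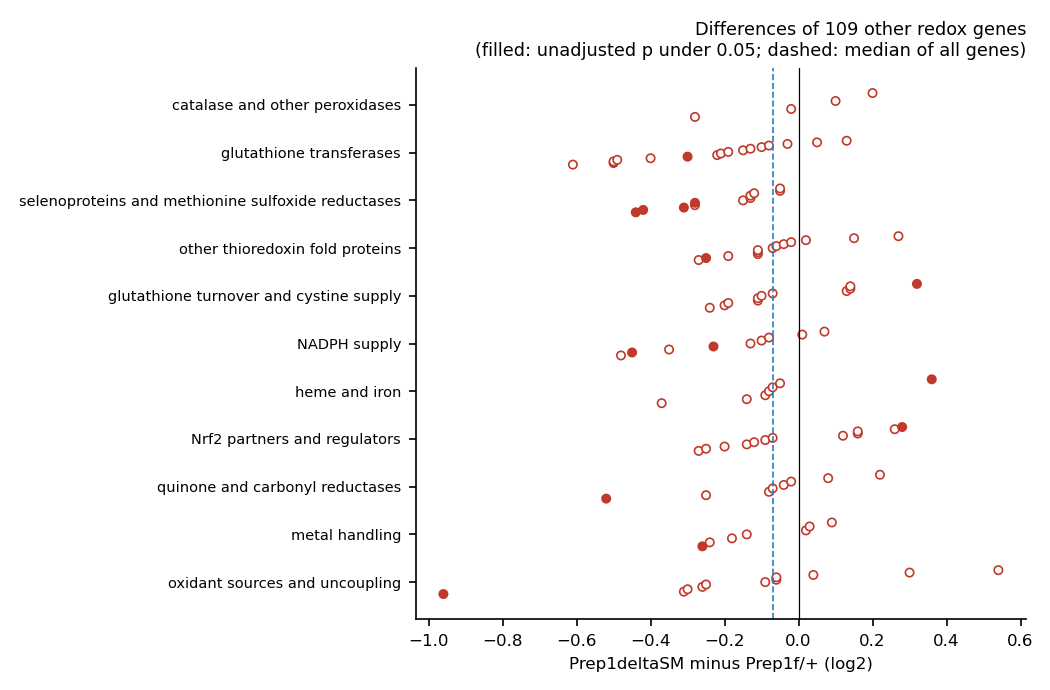
Differences of the 109 tested genes of the wider redox list, Prep1deltaSM minus Prep1f/+ (horizontal axis, log2), by group (rows); filled points have an unadjusted limma p under 0.05, and the dashed line is the median of all genes. All 11 selenoproteins and methionine sulfoxide reductases lie below 0, and Duox1, close to background, lies farthest left at -0.96 (-0.16 under normexp with quantile normalization).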

How the data were processed

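The 8 arrays (design 014868) were scanned and extracted by the authors. Per the file headers, spot intensity as deposited came from Feature Extraction 10.5.1.1 (protocol GE1_107_Sep09), background-subtracted and not normalized between arrays; the submitters' processing notes name version 9.1. Between 0 and 11 non-uniform spots an array were dropped, the log2 of the deposited intensity was taken relative to the array's 75th percentile (139 to 197 units), and spots of a probe were averaged. Probes well above background on at least 4 arrays were kept, 24488 of 41174, and the brightest represented its gene. The test was limma's moderated linear model (lmFit, eBayes; limma 3.58.1, R 4.3.3), adjusted by Benjamini-Hochberg over 16016 genes. The procedure was tested on simulated data of independent normal noise. That simulation held no slide effect and no correlation between genes, so it says nothing of these. Single genes also had an exact permutation test over the 70 assignments of mice. A second deposited table holds the authors' processed intensity; of its 32812 rows, 26241 lay within 0.1 log2 of the scanner values after quantile normalization, on every array, and served as an alternative, and its column medians were 12.66 to 13.25. By that comparison its values are linear and not centred; how its other rows were made is unknown.

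The genes and lists were chosen with earlier results of these data known. Values in every mouse are given for the 12 genes of the set with the smallest unadjusted p, for genes with probes of both signs of which 1 had an unadjusted p under 0.05 and for Pknox1, and up to 4 genes per direction of the wider list are named; Mt1, Mt2, Srxn1, Txnrd1 and Nfe2l2 were added after their values were seen, as was the TGACAG motif. Gene names are those of the array, and all 37 matched a symbol in the RefSeq table. Promoters are from RefSeq (GRCm38.p6), and array positions are in mm9. No label pairs a mouse of one group with a mouse of the other. Alternatives changed the background correction, the scaling, the dim-probe filter or the probe rule, took the authors' values, held slide as a block, or left out each mouse, or Prep1f/+ replicates 1 and 4 together.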

Additional observations from a re-analysis of the deposited data

Results flagged for a closer look

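In 6 of 92 groups of 4 mice, 1 mouse stood apart from the other 3, by a gap to the nearest of them that took up most of the group's range; at 1 group in 20, chance gives 4.6. The gap was 0.938 of the range for Gpx4, highest in Prep1f/+ replicate 2, and 0.845 for Glrx2 in the same mouse. In Prep1deltaSM replicate 4 it was 0.909 for Srxn1, 0.841 for Mt1 and 0.944 for Mafg, each highest in that mouse. Ftl1 was lowest in Prep1f/+ replicate 1, with a gap of 0.835 of the range. The causes were not tested.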

How the results depend on the processing

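No gene of the set passed an adjusted p of 0.05 in any of the 19 alternatives; the lowest was 0.0574, for Gpx3 under normexp with quantile normalization, and Gpx3 ran from -1.03 to -0.71. The median of the set was -0.01, 0.00 and -0.01 under normexp, quantile and median scaling, beside -0.02, -0.03 and -0.01 over all genes, and -0.123 to -0.034 with 1 mouse left out. The 2 higher genes at an unadjusted p under 0.05 became 1 without a filter on dim probes or with slide as a block, 0 without Prep1f/+ replicates 1 and 4 together, and 0 to 2 with 1 mouse left out. In the first 3 of these settings 3.14%, 5.71% and 5.49% of all genes were higher at that threshold. The 3 lower genes became 7 without those replicates together, where 11.3% of all genes were lower, and 2 to 4 with 1 mouse left out. In the wider list the 3 higher genes became 5 under normexp and 5 under median centring, beside 6.8% and 8.25% of all genes. They became 1 without Prep1f/+ replicates 1 and 4 together (5.49% of all genes), and 2 to 4 with 1 mouse left out. The 12 lower became 7 under median centring (6.06% of all genes) and 20 without those replicates together (11.3%). They became 5 with the authors' values (75 genes, beside 8.28% of all genes), and 8 to 15 with 1 mouse left out. With 1 mouse left out, 4.0% to 5.79% of all genes were higher and 7.35% to 11.5% lower at that threshold. The cause of these moves was not tested.

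Pknox1 was -0.89 under normexp with quantile normalization (adjusted p = 0.0018), -1.76 with slide as a block (adjusted p = 0.062), -1.78 without Prep1f/+ replicates 1 and 4 together (adjusted p = 0.0605) and -1.84 to -1.68 with 1 mouse left out (limma adjusted p 0.0137 to 0.0738). Averaging the probes turned the sign of 5 genes whose probes disagree: Sod1 (0.08), Txnrd2 (-0.11), Prdx2 (0.13), Sesn1 (0.09) and Sesn3 (0.04). With 1 mouse left out, Mt1 ran from -0.04 to 1.03, Mt2 from -0.05 to 1.40 and Srxn1 from -0.20 to 0.56, lowest without Prep1deltaSM replicate 4, and Nfe2l2 from -0.02 to 0.36, lowest without Prep1f/+ replicate 1. The labels give no replicate numbers shared by the groups; slides, with 1 array of each group, gave the only pairing, and the block on slide ended the adjusted call of Pknox1. Sod3, Duox1 and the dim probes of Mt1 and Nfe2l2 lie close to background, which limits them.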
